A study of Mus musculus with 17 samples.

Results

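Keratin 7, 8, 18, 19 and 23 (Krt7, Krt8, Krt18, Krt19, Krt23), the cell adhesion molecule Epcam, the transcription factor Sox9, the surface glycoprotein Cd24a and the tight junction protein Cldn4 are genes used to follow bile duct cells and ductular reactions in the liver. They were taken as all probes whose symbol in the deposited ratio table is 1 of these 9 genes, which gave 13 probes among 41174. All 13 probes were tested, among 34664 probes of 19358 genes tested in all. Keratins are intermediate filament proteins that form pairs of an acidic type I and a basic type II partner. Hepatocytes build their filaments from Krt8 and Krt18, whereas bile duct cells also make Krt7 and Krt19, so the first pair is found in both cell types and the others mark ducts. Hepatocyte keratins are known to rise in stressed livers, and the duct markers are known to rise when duct-like progenitor cells expand.

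The livers came from 17 male mice in 4 groups. Mice on a chow diet received a gavage of maltose (chow, n = 4) or 1 gavage of ethanol at 5 g/kg (1B, n = 4), and mice on a high-fat diet (HFD) received maltose (HFD, n = 4) or the same dose of ethanol (HFD+1B, n = 5). All mice were fed for 3 months, and each array held 1 mouse. The strain was C57BL/6N in the sample labels and C57BL/6J in the methods, and no group carried an engineered allele. Each value is the log2 ratio of liver cDNA (Cy5) to a common reference RNA (Cy3), so a value of 0 means equal signal and a difference of 1 means a 2-fold difference between livers. The labels describe this reference in 2 ways, as mixed mouse RNA and as liver. A single limma model held all 17 arrays, p values were adjusted by Benjamini-Hochberg over the 34664 tested probes, and an adjusted p up to 0.05 counted as a call. Where a gene had several probes, the brightest in Cy5 was used for counts and the others are described beside it.

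The arrays had a median Cy5 signal over local background of 43 to 138.5 units, with 3 of the 4 HFD arrays between 43 and 49.5, and 73.86% to 85.98% of probes were well above background. Defining hepatocyte genes were present as the label liver requires, with 11 of 11 probes well above background on every array. All 13 probes of the keratin and ductular genes were well above background on 17 of 17 arrays, except Krt23, which was so on 15 of 17 and on only 2 of 4 arrays in 1B. The Krt18 spot of chow mouse 1 was marked as an outlier by the scanner software, so Krt18 has 3 chow values. Since whole liver was measured, more cells of a type and more RNA per cell cannot be told apart. The numbers of mice limit the precision, and p values rest on the spread between these mice.

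The sequences of Krt8 and Krt18 are shown because, of the 9 genes, these 2 differed most between HFD+1B and chow. Probes of 60 bases were read from the deposited table. The first 2 lie at the end of the coding sequence, the capitals mark the longest run the Krt8 and Krt18 probes share (11 bases), and this run stands at bases 1 to 11 in the Krt8 probe and 12 to 22 in the Krt18 probe. The last probe shown is the brightest of Sox9, shown because the 3 Sox9 probes gave different results. It lies in the HMG box, the DNA-binding domain that Sox9 has in common with related Sox factors, and its capitals mark the longest run (13 bases) found in any probe of another gene on the array.
Krt8 probe A_51_P242399: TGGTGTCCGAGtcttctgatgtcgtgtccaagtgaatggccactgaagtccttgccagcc
Krt18 probe A_51_P324814: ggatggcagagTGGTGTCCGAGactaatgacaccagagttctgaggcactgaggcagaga
Sox9 probe A_51_P451606: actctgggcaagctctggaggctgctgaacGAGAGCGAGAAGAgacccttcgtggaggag
Over the 13 probes, the longest run shared with a probe of another gene was 12 to 16 bases. Probes were compared only with probes and not with whole transcripts, so this does not show whether a probe also binds other transcripts.

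Krt8 and Krt18 are neighbours on mouse chromosome 15 and are transcribed away from each other, with starts 23.9 kb apart in RefSeq on GRCm38.p6. The promoter windows below run from 250 bases before to 10 bases after the annotated start. Capitals mark the letters TATAA, the core of a TATA box, searched on both strands (matches on opposite strands overlap by 4 bases in Krt8).
Krt8 promoter, chr15:102004333-102004592, minus strand: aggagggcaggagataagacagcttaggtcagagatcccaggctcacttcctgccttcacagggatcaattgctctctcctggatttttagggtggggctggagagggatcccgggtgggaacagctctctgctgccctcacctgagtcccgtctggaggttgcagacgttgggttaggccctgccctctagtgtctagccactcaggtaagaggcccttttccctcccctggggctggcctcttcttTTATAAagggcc
Krt18 promoter, chr15:102027966-102028225, plus strand: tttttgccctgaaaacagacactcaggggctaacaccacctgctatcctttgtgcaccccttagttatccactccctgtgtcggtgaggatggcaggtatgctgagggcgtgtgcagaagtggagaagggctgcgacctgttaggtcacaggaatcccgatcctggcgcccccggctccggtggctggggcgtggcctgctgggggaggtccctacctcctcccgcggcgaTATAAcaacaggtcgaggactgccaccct
Of 32851 RefSeq promoter windows of this length, 23.3% held TATAA. Of the 6 genes with an entry, Krt8 and Krt18 held it, whereas Krt7, Krt23, Epcam and Cldn4 did not. The places differed: the Krt8 matches ran across the annotated start (-2 to 3 and -1 to 4), and the Krt18 match lay before it (-19 to -15). The letters GGGCGG, a GC box, were in the windows of Krt7, Epcam and Cldn4 and in 33.4% of all windows. The letters TGANTCA, read by AP-1 factors, were in the window of Cldn4 and in 7.03% of all windows. The letters TTCNNNGAA, read by STAT factors, were in 0 of the 6 windows and in 7.33% of all windows. These are matches of letters within the windows and carry no information on binding.

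Of the 9 genes, Krt7, Krt8, Krt18, Krt23 and Sox9 were called in at least 1 comparison, and Epcam, Cd24a, Cldn4 and Krt19 were called in 0 of the 6 comparisons. The hepatocyte pair Krt8 and Krt18 was higher in HFD+1B than in each of the other groups. In 1B against chow 0 of the 9 genes were called by limma, where 4.14% of all genes were called. There, 1 gene (Krt23) had an unadjusted p under 0.05, and 1 gene (Sox9) was called on probes other than its brightest, with 1.84% of all probes called higher. In HFD against chow 2 were called, Krt8 higher and, in ratios but not with Cy5 alone, Krt7 lower (4.50% of all genes were called higher and 6.45% lower). Cy5 alone is an alternative that leaves out the reference and also replaces loess by quantile normalization between arrays. In HFD+1B against chow 2 were called, both higher (16.3% of all genes called, 8.90% higher). In HFD+1B against HFD 4 were called, Krt7, Krt8, Krt18 and Sox9, all higher (19.3% of all genes called, 8.39% lower, and 2120 of 19358 genes higher). With Cy5 alone Krt7 and Krt18 lost this call, at log2 differences of -0.01 and 0.91 (adjusted p = 0.9938 and 0.07044). In HFD+1B against 1B 3 were called, Krt8, Krt18 and Krt23, all higher (11.4% of all genes called, 6.27% higher). In the interaction, which asks whether the binge effect differed between diets, 1 was called, Krt7, whose sign turned with Cy5 alone (4.38% of all genes called, 2.66% higher). Among all probes, the first group lay wholly above the second for 5.65% when 1B was set against chow, 8.37% for HFD against chow and 7.34% for HFD+1B against chow. This share was 7.58% for HFD+1B set against HFD and 4.96% for HFD+1B set against 1B. HFD lay wholly below chow for 9.95%. The comparisons share arrays, those with chow the chow arrays and those with HFD+1B its arrays. The median log2 difference over all genes was -0.01 to 0.01 in each comparison.

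The hepatocyte keratin pair rose with HFD+1B. In Krt8, the type II partner of hepatocyte filaments, the log2 ratios were -1.21, -1.11, -1.02 and -1.21 in the chow livers, -1.10, -1.14, -1.36 and -0.85 in the 1B livers, -0.67, -0.41, 0.31 and -0.54 in the HFD livers and 0.32, 0.70, 0.52, 0.86 and 0.39 in the HFD+1B livers. The 5 HFD+1B livers lay above all livers of each other group, and the HFD livers above all chow livers (shares over all probes are given above). Chow and 1B overlapped. Krt8 was 3.24-fold higher in HFD+1B than in chow (log2 difference 1.70, SE 0.16, adjusted p = 2.848e-06), and this difference held within each of the 4 slides that carried both groups (1.51 to 1.73). Against 1B it was 3.18-fold higher (adjusted p = 6.869e-06), against HFD 1.85-fold higher (adjusted p = 0.001553), and in HFD against chow 1.76-fold higher (log2 difference 0.81, adjusted p = 0.006872). In 1B, the log2 difference from chow was 0.03 (95% confidence interval -0.34 to 0.39). The order of the levels was thus chow and 1B, which did not differ beyond their spread, then HFD, then HFD+1B. The interaction of Krt8 was 0.86 (SE 0.24, adjusted p = 0.05097), just outside the threshold, and without HFD mouse 3 it was 1.07 (adjusted p = 0.006598).

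The other Krt8 probe, whose sequence is printed above, gave -0.90, -1.10, -0.92 and -1.28 in chow and 0.24, 0.99, 0.51, 1.03 and 0.75 in HFD+1B. It was 3.37-fold higher in HFD+1B than in chow (adjusted p = 2.451e-05), 1.99-fold higher than in HFD (adjusted p = 0.004225) and, in HFD, 1.70-fold higher than in chow (adjusted p = 0.04063). Both probes of Krt8 therefore passed the same 4 comparisons. On both probes HFD mouse 3 was the highest of the HFD livers (0.31 and 0.49), and on the second it lay within the HFD+1B range. Without that mouse, the log2 difference of HFD from chow for Krt8 was 0.60 (adjusted p = 0.01557), and when arrays were centred on their median without loess it was 0.52 and not called (adjusted p = 0.138).

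In Krt18, the type I partner of Krt8, the log2 ratios were -0.94, -0.96 and -1.08 in the chow livers, -0.26, -0.41, -1.10 and -0.72 in the 1B livers, -0.86, -0.35, 0.53 and -0.40 in the HFD livers and 0.25, 0.74, 0.27, 0.98 and 0.52 in the HFD+1B livers. HFD+1B lay above chow and 1B without overlap, but HFD mouse 3 lay among the HFD+1B livers. Krt18 was 2.92-fold higher in HFD+1B than in chow (log2 difference 1.55, SE 0.25, adjusted p = 0.0004133), 2.26-fold higher than in 1B (adjusted p = 0.003514) and 1.77-fold higher than in HFD (adjusted p = 0.02003). The difference from HFD was positive within 3 of 4 slides (-0.25 to 1.39), and it lost its call when HFD+1B mouse 4, HFD mouse 1 or HFD mouse 4 was left out (adjusted p = 0.05687, 0.06653 and 0.05905). With Cy5 alone this log2 difference was 0.91, against 0.82 in ratios, but it was not called (adjusted p = 0.07044). In HFD against chow, the log2 difference was 0.72 (adjusted p = 0.09077, and 0.03207 without HFD mouse 1).

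**Figure D1:**
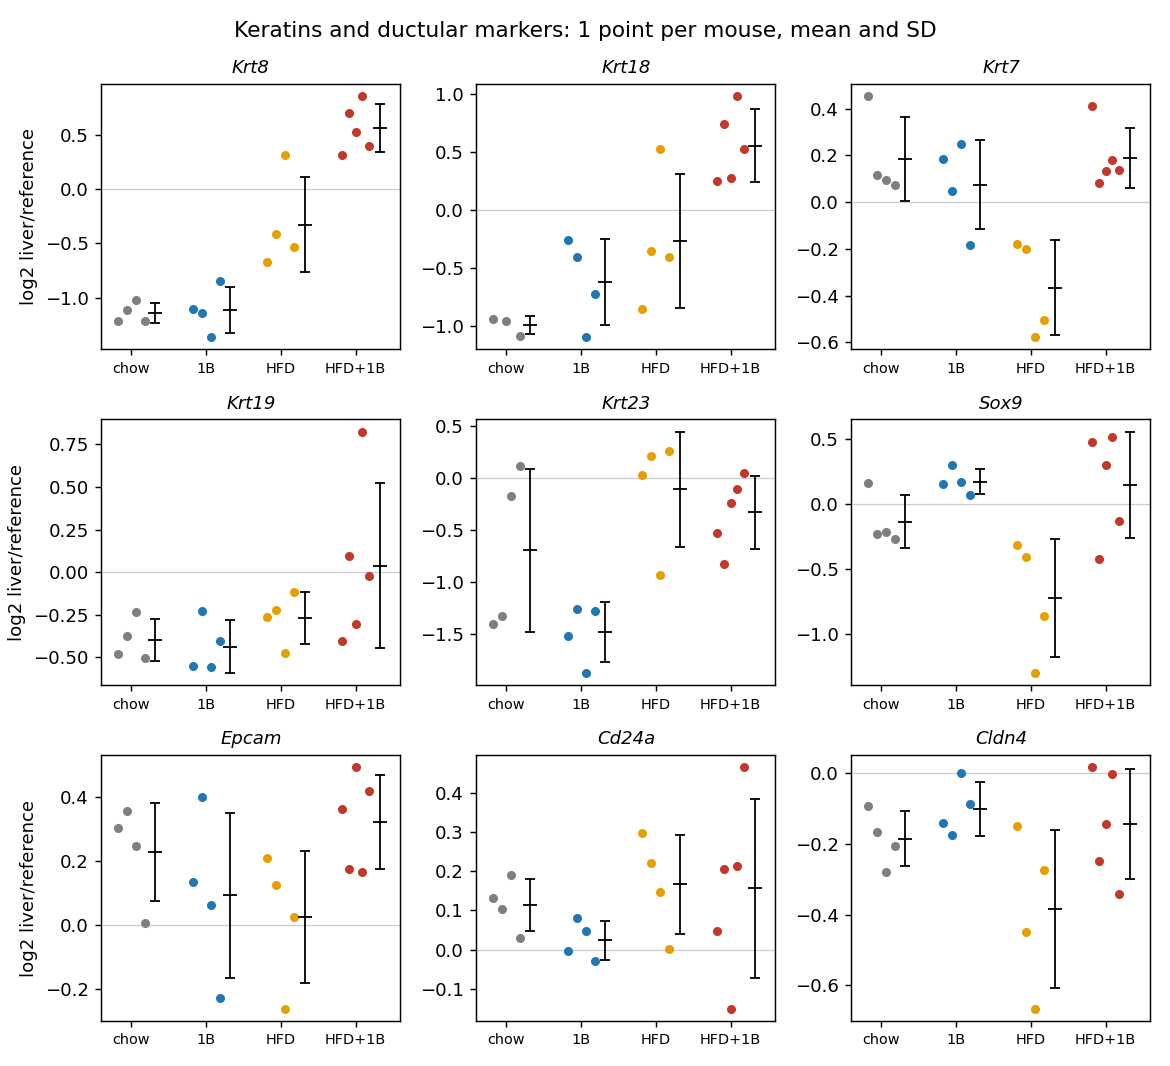
Liver over reference (log2) of the 9 genes, each on its brightest probe (vertical axes, 1 scale per gene), by group. Each point is 1 mouse, and the black mark and bar give the mean and SD. Krt8 runs from -1.14 in chow to 0.56 in HFD+1B and Krt18 from -0.99 to 0.55, whereas the groups of Cd24a and Cldn4 overlap. The Cd24a probe was dim: its HFD+1B values run from -0.15 to 0.46 here and from -0.66 to 1.22 in the deposited ratios.

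Krt8 and Krt18 followed each other from liver to liver. Across the 16 livers with both values, Pearson's r was 0.93, and after the group means were taken out it was 0.84, a description that includes the shared array of each pair of values. Over the 36 pairs of the 9 genes it was the highest r on both measures, followed by Sox9 with Cldn4 (0.84 and 0.73) and Krt7 with Sox9 (0.82 and 0.71). Krt8 and Krt7 had r = -0.09 across livers and -0.62 within groups. The genes most like Krt8 over the 17 arrays, among 15375 genes above background on all arrays, were Chmp2b (r = 0.98), Klf6 (0.98) and Lgmn (0.96), and those most like Krt18 were Lgmn (0.95), Tpm4 (0.95) and Tgm2 (0.94). Chmp2b takes part in endosomal sorting, Klf6 is a zinc finger transcription factor, Lgmn is a lysosomal protease, Tpm4 is a tropomyosin and Tgm2 is a transglutaminase that can cross-link keratins.

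**Figure D2:**
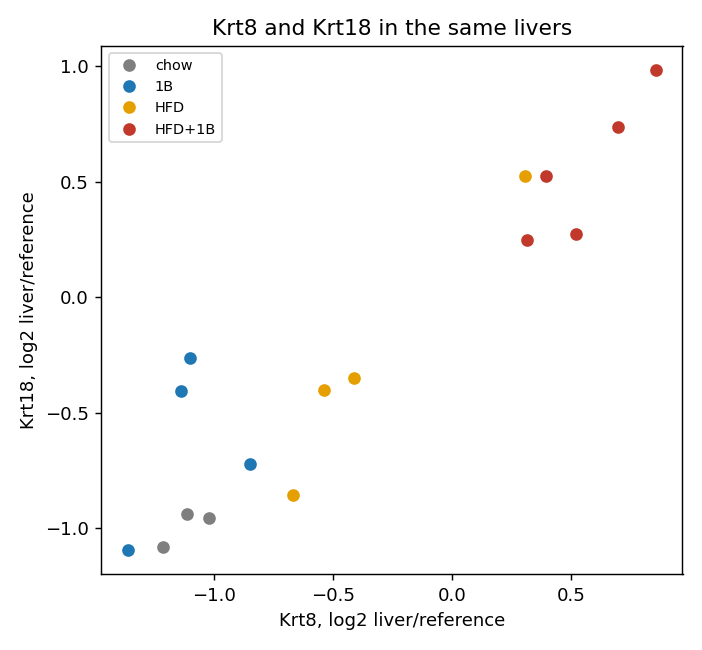
Log2 ratio of Krt8 (horizontal axis) against that of Krt18 (vertical axis) in the same liver, 1 point per mouse, for the 16 mice with both values. The HFD+1B mice lie at the upper right, the chow and 1B mice at the left with Krt8 below -0.8, and the HFD mice between them, with HFD mouse 3 (0.31 and 0.53) at the edge of the HFD+1B mice.

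The duct keratins Krt7, Krt19 and Krt23 were not called in HFD+1B against chow. In Krt7, the type II keratin of duct cells, the log2 ratios were 0.46, 0.12, 0.10 and 0.07 in the chow livers, 0.19, 0.05, 0.25 and -0.18 in the 1B livers, -0.18, -0.20, -0.58 and -0.50 in the HFD livers and 0.41, 0.08, 0.13, 0.18 and 0.14 in the HFD+1B livers. The HFD livers lay below all chow and HFD+1B livers, while chow, 1B and HFD+1B overlapped. Krt7 was 1.47-fold lower in HFD than in chow (log2 difference -0.55, SE 0.12, adjusted p = 0.009164) and 1.47-fold higher in HFD+1B than in HFD (log2 difference 0.56, adjusted p = 0.003528), but these differences were -0.05 and -0.01 with Cy5 alone. Within slides the ratios gave -0.65 to -0.32 on 3 slides and 0.34 to 0.71 on 4. HFD+1B and chow differed by 0.00 on the log2 scale (95% confidence interval -0.24 to 0.25). The binge effect differed between the diets, with an interaction of 0.67 (SE 0.17, adjusted p = 0.03572; -0.08 with Cy5 alone), the only one of the 9 genes called there. This call was lost when any of 10 of the 17 arrays was left out (adjusted p up to 0.08002), with normexp at offset 0 (adjusted p = 0.06307) and in the deposited ratios (adjusted p = 0.0588).

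These Krt7 results were not seen with Cy5 alone, where both the reference and the loess step are left out, nor on the other probe. With Cy5 alone the log2 differences were -0.05 for HFD against chow (adjusted p = 0.9653), -0.01 for HFD+1B against HFD (adjusted p = 0.9938) and -0.08 for the interaction (adjusted p = 0.9617). The dimmer Krt7 probe, with a group median of 36.8 to 79 units in Cy5, was called in none of the comparisons, and its log2 difference of HFD from chow was 0.18 (95% confidence interval -0.06 to 0.43, adjusted p = 0.3382). In addition, the arrays low in Krt7 were also low in ribosomal RNA probes. All 3 ribosomal RNA genes were called lower in HFD than in chow, and their mean log2 level relative to the chow mean ran from -4.08 to -2.41 over the HFD livers, against -0.27 to 0.21 (chow), -1.47 to -0.31 (1B) and -1.42 to 0.64 (HFD+1B). HFD mouse 3, the lowest of all livers in this signal (-4.08), was the highest HFD liver for Krt8 and Krt18 and the lowest for Krt7 and the brightest Sox9 probe. The part of this signal in the HFD results of Krt7, Krt8, Krt18 and Sox9 was not tested.

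In Krt19, the type I keratin of duct cells, the log2 ratios were -0.48, -0.37, -0.23 and -0.51 in the chow livers, -0.55, -0.23, -0.56 and -0.41 in the 1B livers, -0.27, -0.22, -0.47 and -0.12 in the HFD livers and -0.40, 0.09, -0.30, 0.83 and -0.02 in the HFD+1B livers. HFD+1B mouse 4 was the highest by far, and the 4 groups overlapped. The log2 difference of HFD+1B from chow was 0.44 (95% confidence interval 0.06 to 0.81, adjusted p = 0.1217), and that from 1B was 0.47 (adjusted p = 0.1119), and neither passed the threshold. Without HFD+1B mouse 1, these differences were 0.55 (adjusted p = 0.04342) and 0.58 (adjusted p = 0.04012), both past the threshold. With slide as a block the difference from 1B was 0.54 and called (adjusted p = 0.02692) and that from chow 0.35 (adjusted p = 0.1274), and within slides both were positive on 4 of 4 (0.15 to 1.23 and 0.08 to 0.35). The probe was dim, with a group median of 38.8 to 77 units in Cy5. The size of these differences was not fixed by these data. Over 30 alternatives it ran from 0.24 to 0.79 against chow and from 0.22 to 0.76 against 1B.

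In Krt23, a type I keratin that is low in normal liver, the log2 ratios were -1.41, -1.33, -0.18 and 0.11 in the chow livers, -1.52, -1.27, -1.88 and -1.28 in the 1B livers, 0.02, 0.21, -0.93 and 0.26 in the HFD livers and -0.53, -0.83, -0.24, -0.11 and 0.04 in the HFD+1B livers. The chow livers split into a low and a high pair, and all 5 HFD+1B livers lay above all 4 1B livers. Krt23 was higher in HFD+1B than in 1B (log2 difference 1.15, SE 0.30, adjusted p = 0.02108), and within 4 slides the difference was 0.99 to 1.31. Its size was not fixed by these data: it was 2.49 with normexp at offset 0 (adjusted p = 0.001754) and 2.99 in the deposited ratios (adjusted p = 0.001905). In 1B only 2 of 4 arrays were well above background (group median 21 units in Cy5), and this call was lost without 1B mouse 1, 1B mouse 3 or HFD+1B mouse 4 (adjusted p = 0.05355, 0.07726 and 0.05202) and with Cy5 alone (adjusted p = 0.06195). In 1B against chow, the log2 difference was -0.79 (adjusted p = 0.2457). It was -1.86 with normexp at offset 0 (adjusted p = 0.03875) and -2.29 in the deposited ratio table (adjusted p = 0.03011).

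**Figure D3:**
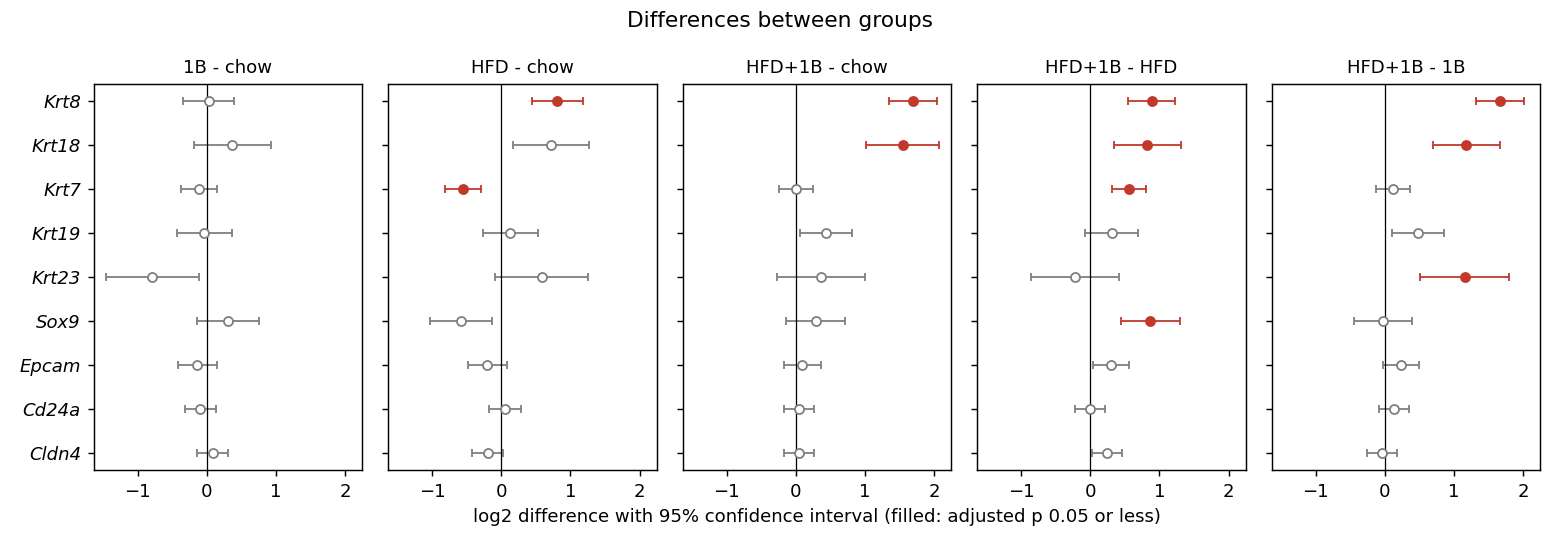
Log2 differences of the 9 genes (rows) in 5 comparisons of groups (panels), with 95% confidence intervals. Filled red points passed the threshold (adjusted p up to 0.05). Krt8 and Krt18 lie right of 0 in all 3 panels that contain HFD+1B, and Krt7 lies left of 0 in HFD - chow (-0.55, but -0.05 with Cy5 alone).

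Sox9, a transcription factor of duct and progenitor cells, was measured by 3 probes that did not give the same picture. On the brightest probe the log2 ratios were 0.16, -0.24, -0.22 and -0.27 in the chow livers, 0.15, 0.30, 0.17 and 0.07 in the 1B livers, -0.32, -0.41, -1.30 and -0.86 in the HFD livers and 0.48, -0.43, 0.30, 0.51 and -0.14 in the HFD+1B livers. Each HFD liver lay below all chow livers (so for 9.95% of all probes), while HFD+1B spread from the HFD range to above chow. This probe was 1.83-fold higher in HFD+1B than in HFD (log2 difference 0.87, SE 0.20, adjusted p = 0.006382), with 0.28 to 1.60 within 4 slides, and its log2 difference of HFD from chow was -0.58 (adjusted p = 0.08934). That last value was called with median centring (-0.77, adjusted p = 0.03184), in the deposited ratio table (-0.76, adjusted p = 0.03913) and without HFD mouse 1 (-0.72, adjusted p = 0.04697).

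On probe A_52_P577484 the log2 ratios of Sox9 were -0.40, -0.80, -0.93 and -0.91 in the chow livers, 0.56, 0.67, -0.09 and 0.36 in the 1B livers, -0.41, -0.51, -0.67 and -0.46 in the HFD livers and 0.38, -0.09, 0.73, 0.54 and 0.38 in the HFD+1B livers. The 1B livers lay above all chow livers, as was so for 5.65% of all probes. The HFD+1B livers lay above all chow livers (7.34% of all probes) and above all HFD livers (7.58%) on this probe. It was 2.20-fold higher in 1B than in chow (log2 difference 1.14, SE 0.17, adjusted p = 0.0007875), 2.22-fold higher in HFD+1B than in chow (adjusted p = 0.0001156) and 1.87-fold above HFD in the HFD+1B livers (adjusted p = 0.001407). Probe A_52_P214630, which is spotted 10 times per array, was 1.64-fold higher in 1B than in chow (adjusted p = 0.01094), 1.56-fold higher in HFD+1B than in chow (adjusted p = 0.004308) and 1.37-fold above HFD in the HFD+1B livers (adjusted p = 0.03335). This probe was dim, with a group median of 23.2 to 85.6 units in Cy5. On neither probe did HFD differ from chow past the threshold (log2 differences 0.25 and 0.19, adjusted p = 0.3961 and 0.4595), and neither had a called interaction (adjusted p = 0.6421 and 0.5409). On A_52_P214630 each HFD liver lay above all chow livers (lowest -0.24 against highest -0.27), as was so for 8.37% of all probes. This is the opposite direction to the brightest probe. All 3 probes thus rose in HFD+1B against HFD, but the brightest did not pass in 1B or in HFD+1B against chow (log2 differences 0.31 and 0.28, adjusted p = 0.6116 and 0.4188).

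**Figure D4:**
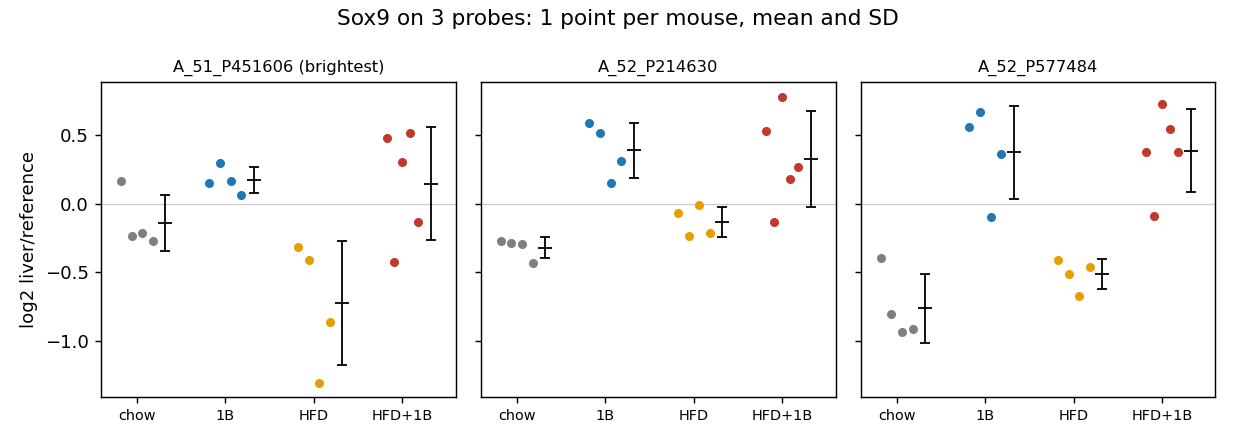
Log2 ratio of Sox9 on its 3 probes (panels, same vertical axis) by group, 1 point per mouse with the mean and SD. On probes A_52_P214630 and A_52_P577484, 1B and HFD+1B stand above chow (group means 0.39 and 0.33 against -0.32, and 0.37 and 0.39 against -0.76), whereas on the brightest probe HFD is the group that stands apart (-0.72).

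The 3 surface and junction markers of ducts were called in 0 of the 6 comparisons. Epcam, an adhesion molecule of duct and progenitor cells, had group means of 0.23 ± 0.15 (SD, n = 4) in chow, 0.09 ± 0.26 in 1B, 0.02 ± 0.21 in HFD and 0.32 ± 0.15 (n = 5) in HFD+1B, with log2 differences of 0.30 for HFD+1B against HFD (95% confidence interval 0.03 to 0.56, adjusted p = 0.1114) and 0.43 for the interaction (adjusted p = 0.1915). Cldn4, a claudin of simple epithelia, had a log2 difference of 0.24 for HFD+1B against HFD (adjusted p = 0.1185), and its largest size against chow was -0.20 in HFD (95% confidence interval -0.43 to 0.03). Cd24a, a glycoprotein of progenitor cells, differed by no more than 0.13 on the log2 scale between any 2 of the compared groups, on a probe with a group median of 30 to 46 units in Cy5. Under other settings its differences reached -0.36 for 1B against chow and 0.37 for HFD+1B against 1B, without a call. With median centring, Epcam was called in HFD+1B against HFD (0.53, adjusted p = 0.01139) and in the interaction (0.70, adjusted p = 0.04837), and Cldn4 in HFD+1B against HFD (0.44, adjusted p = 0.03205). The latter was also called with the replicate block (0.29, adjusted p = 0.0423) and without HFD mouse 1 (0.32, adjusted p = 0.04684), but turned to -0.07 with Cy5 alone.

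Other genes of the same pathways were counted from lists, in HFD+1B against chow unless another comparison is named. In HFD+1B against chow, 8.90% of all genes were higher and 7.39% lower. Of 37 other keratins tested, 0 were higher and 2 lower, Krt5 (log2 difference -0.70, adjusted p = 0.004973), a keratin of basal cells, and Krt33b (-0.41, adjusted p = 0.01245), a hair keratin, and the median over the list was -0.02. Each lost its call under 1 of 6 scalings (highest adjusted p 0.4587 and 0.1672) and stayed below 0 under all 6. The list median turned to 0.00 with median centring. In HFD against chow 0 of the 37 were higher and 5 lower (median -0.13), where 4.50% of all genes were higher and 6.45% lower. The 5 were Krt5, Krt10, Krt20, Krt32 and Krt71, named here after their values were seen. In HFD+1B against HFD 7 were higher and 0 lower (median 0.09), where 2120 of 19358 genes were higher and 8.39% lower. With Cy5 alone 3 of the 37 were higher in that comparison and the median was -0.02. The low ribosomal RNA signal of the HFD livers given above moved with both counts, and its part in them was not tested.

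Of 32 other biliary and progenitor genes, 5 were higher and 3 lower, with a median of 0.07. Lcn2, a secreted iron carrier that hepatocytes also make in inflammation, had the largest difference (log2 difference 6.17, adjusted p = 1.586e-05), followed by Tnfrsf12a, the receptor of the cytokine TWEAK that drives progenitor growth (2.57, adjusted p = 4.4e-07). Slc10a2, the bile acid transporter of duct cells (1.94, adjusted p = 6.439e-06), and Wfdc2, a secreted protease inhibitor (1.93, adjusted p = 7.123e-06), were also higher, whereas Cldn3, a claudin of duct cells and hepatocytes, was lower (-0.85, adjusted p = 0.002316). Tnfrsf12a had group means of -1.79 ± 0.22 (SD, n = 4) in chow, -1.46 ± 0.38 in 1B, -0.99 ± 0.53 in HFD and 0.77 ± 0.14 (n = 5) in HFD+1B, the same order of groups as Krt18. Wfdc2 was also higher in HFD than in chow (group means 0.13 ± 0.27 and -1.49 ± 0.11, log2 difference 1.62, adjusted p = 0.0002908).

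Of 33 genes of keratin partners and keratin aggregates, among them plakins, desmosomal proteins and chaperones, 10 were higher and 5 lower, with a median of 0.14. Tgm2 (log2 difference 3.14, adjusted p = 4.296e-07), Eppk1, a plakin that binds keratin filaments (0.94, adjusted p = 0.0002062), Hspb8, a small heat shock protein (0.93, adjusted p = 0.0002485), and Des, the filament protein of stellate cells (0.58, adjusted p = 0.0002449), were the higher genes with the lowest p. Under 5 other scalings the list had 6 to 10 genes higher and 1 to 5 lower. Of 26 other claudins and tight junction genes, 3 were higher and 2 lower, with a median of -0.02: Cldn14 was higher (3.28, adjusted p = 4.407e-05), as was Tjp3 (0.69, adjusted p = 0.00281), and Cldn3 and Cldn12 (-0.55, adjusted p = 0.003596) were lower. Of 23 Notch and YAP pathway genes, 1 was higher and 2 lower, with a median of 0.03. Tead1, a DNA-binding partner of YAP, was higher (2.51, adjusted p = 4.05e-08), and Amotl2 (-0.85, adjusted p = 0.0002196) and Heyl (-0.62, adjusted p = 0.01461), a Notch target, were lower.

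Markers of other cells were counted as well. Of 9 stellate cell genes tested, 6 were higher and 0 lower in HFD+1B against chow (median 1.04), and 4 were higher in HFD against chow (median 0.86). Over all genes, 8.90% were higher in HFD+1B against chow and 4.50% in HFD against chow. The stellate level of single livers relative to the chow mean ran from -0.24 to 0.16 (chow), 0.18 to 0.32 (1B), 0.68 to 0.93 (HFD) and 0.24 to 1.36 (HFD+1B). Of 8 macrophage and Kupffer cell genes 2 were higher in HFD+1B against chow (levels 0.25 to 0.78 over HFD+1B livers, 0.37 to 0.54 over HFD livers and -0.26 to 0.27 over chow livers). In HFD+1B against HFD, where Krt8 and Krt18 were also higher, 2 of 9 stellate genes were higher (median 0.09). There, 0 of 8 macrophage and Kupffer cell genes were called (median 0.0025), while 2120 of 19358 genes were higher. In the same comparison of HFD+1B with chow, 2 of 7 erythroid genes were higher, 3 of 12 neutrophil genes were higher and 1 lower, 1 of 9 pancreatic acinar genes was higher, and 0 of 6 B cell genes were called.

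Markers of other cells that make simple keratins were examined in HFD+1B against chow. Of 7 mesothelial genes 4 were tested, and Msln (log2 difference 0.58, adjusted p = 0.04245) and Gpm6a (0.43, adjusted p = 0.04114) were higher, with a call under 3 and 2 of 6 scalings. Relative to the chow mean, the list level of single livers ran from -0.07 to 0.11 (chow), 0.11 to 0.25 (1B), 0.05 to 0.35 (HFD) and 0.13 to 0.44 (HFD+1B), while the defining markers Wt1, Upk3b, Upk1b and Muc16 were well above background on only 3, 6, 1 and 2 of 17 arrays. Of 10 intestinal and gallbladder genes 7 were tested, with 1 higher (Fabp2, log2 difference 1.38) and 1 lower (Lgals4, -0.48). The median over this list was -0.02. Its levels spanned -0.02 to 0.04 in chow and 0.11 to 0.24 in HFD+1B. Livers given HFD without ethanol were at 0.18 to 0.25, so the level was not particular to HFD+1B. The 1B livers were at -0.10 to -0.01. Of 10 hepatocyte genes tested, Tat was higher and Hpd, Cyp2e1 and Fah were lower. The hepatocyte list levels were -0.07 to 0.17 in chow, -0.24 to -0.08 in 1B and -0.30 to -0.09 in HFD. In HFD+1B mice 2 and 4 were at -0.70 and -0.55 and the other 3 at -0.04 to 0.08, and mice 2 and 4 were also the highest of the group for Krt8, Krt18 and Krt19. The part of these cells in the keratin results was not tested.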

How the data were processed

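Each of 17 mice contributed 1 liver to a 2-color Agilent array, with liver cDNA always in Cy5. The authors deposited scanner output with raw intensity of 45018 spots per array (Feature Extraction 11.5.1.1), and a series-wide list of the log2 ratio for 41174 probes, which the authors made from the processed signals of the same scans (largest difference 2.74e-06). Symbols and probe sequences come from that list. Its annotation is of an older genome build than the RefSeq promoters (GRCm38.p6).

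Raw intensity of 43379 non-control spots was corrected by normexp with an offset of 50, which compresses ratios of dim probes. Spots marked as outliers were dropped, loess was applied to each array, and replicate spots were averaged. A probe was tested if well above background in Cy5 on at least 4 of 17 arrays and with a value in every group (3424 values missing). Fits used R 4.3.3, limma 3.58.1 (lmFit, eBayes; 13 residual degrees of freedom) and the data.table package (1.17.8), and were tested on simulated data. The 5 slides held 3 or 4 groups each, and within-slide differences stand beside key results. Named genes were the 9 genes, up to 4 genes of lowest p called in HFD+1B against chow per list, and the 3 genes most like each called gene. Genes and lists were chosen with earlier results of these data known. Alternatives changed the background correction, scaling, filter, outlier spots, slide or replicate block, call rule, test (the methods' 1-way analysis of variance with the Tukey test), probe and arrays.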

Additional observations from a re-analysis of the deposited data

Results flagged for a closer look

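In the Dixon test of 35 sets of 4 or 5 values (9 genes by group, brightest probe), 2 sets had a value far from the others, where chance alone gives about 1 in 20. Both were of chow mouse 1, with a Krt7 log2 ratio of 0.46 and a Sox9 log2 ratio of 0.16, each the highest of its group. This array also had 1374 outlier spots, against 190 to 659 on the other 16. Without chow mouse 1, the Krt7 interaction was 0.58 (adjusted p = 0.0736), and the call was also lost when any of 9 other arrays was left out.

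The effect of the ethanol binge on Krt7 differed between the diets by the interaction term, 0.67 on the log2 scale (adjusted p = 0.03572). The binge effect was -0.11 in mice on chow and 0.56 in mice on HFD, and the interaction was -0.08 with Cy5 alone.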

How the results depend on the processing

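Krt8 and Krt18 in HFD+1B against chow, and Krt8 in HFD+1B against 1B, kept their call and direction under all 30 alternatives (log2 differences 1.62 to 1.76, 1.44 to 1.62 and 1.59 to 1.76). Other calls were lost under some. The number of the 9 genes called moved by over 1.5 times, or by a gene gained or lost, as follows. With normexp at offset 0 and in the authors' list of ratios it was 1 in 1B against chow (Krt23) and 0 in the interaction. With median centring it was 3 in the interaction (Krt7, Krt8, Epcam) and 6 for HFD+1B set against HFD (Epcam and Cldn4 gained), and Sox9 took the place of Krt8 in HFD against chow. With Cy5 alone it was 1 in HFD against chow (Krt8), 2 in HFD+1B against HFD (Krt8, Sox9), 2 in HFD+1B against 1B (Krt23 lost) and 0 in the interaction. With the slide block it was 4 in HFD+1B against 1B (Krt19 gained). The authors' list also gave 3 in HFD against chow (Sox9 gained). With probes above background on all 17 arrays it was 2 in the interaction (Krt7, Krt8) and 2 in HFD+1B against 1B (Krt23 not tested). With a 2-fold threshold and unadjusted p it was 0 in HFD against chow, 0 for HFD+1B set against HFD and 0 for the interaction. With the Tukey test and Benjamini-Hochberg it was 0 in HFD against chow, 2 in HFD+1B against HFD (Krt7, Krt8) and 1 in HFD+1B against 1B (Krt8). With any tested probe it was 1 in 1B against chow (Sox9) and 3 in HFD+1B against chow (Sox9 gained). Leaving out 1 array gave 2 to 4 in HFD against chow (4 without HFD mouse 1), 2 to 3 in HFD+1B against chow, 3 to 4 when set against HFD, 2 to 4 when set against 1B and 0 to 2 in the interaction, where Krt7 lost its call in 10 of 17 cases. The cause of these changes was not tested.

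Among called differences, the sign turned for Krt7 with Cy5 alone (HFD+1B against HFD and the interaction). The other signs that turned were of differences not called, among them Cldn4 in HFD+1B against HFD (0.24) and Epcam in HFD against chow (-0.20), which also turned with Cy5 alone. In log2 differences, offset 0 gave -0.0111 for Krt7 in HFD+1B against chow, and no background subtraction gave 0.0151 for Cd24a in HFD+1B against HFD. Median centring gave -0.11 for Krt8 in 1B against chow, 0.11 for Sox9 and 0.0031 for Cldn4 in HFD+1B against 1B, and -0.006 for the Cd24a interaction. Cy5 alone gave 0.0724 for Krt7, 0.14 for Krt19 and -0.10 for Cldn4 in 1B against chow, 0.16 for Epcam and 0.0348 for Cldn4 in HFD against chow, -0.0522 for Krt7 and -0.0372 for Cldn4 in HFD+1B against chow. It also gave -0.0063 for Krt7, 0.0241 for Krt23 and -0.0719 for Cldn4 when HFD+1B was set against HFD, -0.12 for Krt7 and 0.0652 for Cldn4 when it was set against 1B, and interactions of -0.0786 for Krt7 and -0.0597 for Cd24a. The authors' list gave 0.0236 for Krt19 in 1B against chow and -0.0725 for Krt7 in HFD+1B against chow. The slide block gave 0.0179 for Sox9 in HFD+1B against 1B. Leaving out 1 array gave -0.0607 to 0.11 for Krt8 and -0.11 to 0.0172 for Krt19 in 1B against chow, -0.0517 to 0.0945 for Krt7 and -0.0349 to 0.12 for Cd24a in HFD+1B against chow, -0.088 to 0.0658 for Cd24a when set against HFD, and -0.12 to 0.12 for Sox9 and -0.0832 to 0.0066 for Cldn4 in HFD+1B against 1B.

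Mice shared a replicate number across groups. With group means taken out, 16 of 24 same-number pairs of arrays correlated above 0.1 (median r 0.18), against 19 of 84 other pairs (median -0.05). Of same-slide pairs, 16 of 21 did so (median 0.20), against 19 of 87 on different slides (median -0.04). Arrays that shared a number or a slide were thus more alike, and number and slide often coincided. The main fit held neither as a block, and both blocks are given as alternatives. With the replicate block, the number called was 2 in the interaction (Krt7, Krt8) and 5 in HFD+1B against HFD (Cldn4 gained), and log2 differences turned to -0.0349 for Cd24a in HFD+1B against chow and to 0.0448 for Sox9 and 0.0066 for Cldn4 in HFD+1B against 1B. Signal over background limited Krt23 in 1B, Krt19, Cd24a, the dimmer Krt7 probe and Sox9 probe A_52_P214630.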
